A study of Mus musculus with 20 samples.

Results

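The hippocampus of miR-324-null mice was compared with that of WT mice by mRNA sequencing, in the 10 hippocampal libraries of a series of 20, taken by their tissue and genotype labels, with 5 libraries in each group. All 10 came from male mice of the C57BL/6J strain aged 13.5 months. The null allele is a deletion of the *Mir324* locus, made with Cas9 and a pair of guide RNAs injected into zygotes, and it is present in every cell from early development on. Part of the founders' genome came from the CBA/ca strain, backcrossing to C57BL/6J followed, and both lines descend from heterozygous parents. A difference between the lines that the deletion did not cause, such as sequence on chromosome 11 that is inherited together with the locus, cannot be told apart from the deletion in this design. The other 10 libraries are the neocortex of both genotypes and are used here only to show where the hippocampus differs.

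A microRNA is a short RNA that is loaded into an Argonaute protein and pairs, mainly through its seed, with messenger RNAs, which are then degraded or translated less. Single targets usually shift by little, so the effect of losing a microRNA can lie in many small shifts as well as in a few large ones. The hippocampus holds excitatory pyramidal neurons of the CA fields and granule neurons of the dentate gyrus, a smaller number of inhibitory GABAergic interneurons that restrain them, and glial and vascular cells. The mature arms of the deleted microRNA are shown because they are what the null libraries lack. They are RefSeq sequences on GRCm38.p6, 5′ to 3′, with the seed (bases 2 to 8) in capitals, from the forward strand at chr11:70012060-70012082 and chr11:70012095-70012114.
miR-324-5p: cGCAUCCCcuagggcauuggugu
miR-324-3p: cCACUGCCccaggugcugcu
The seeds of the arms differ. The libraries hold messenger RNA, in which the level of the microRNA itself was not measured, so the deletion could not be checked against the labels.

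The libraries held between 12752439 and 16239257 estimated counts. Each gene was given the sum of the counts of its transcripts, and levels are given as CPM, counts scaled to the library total after TMM normalisation, and differences as log2 fold changes of null against WT. Of 14796 genes tested with edgeR's quasi-likelihood test, 17 (0.115%) had an adjusted p of at most 0.05 after Benjamini-Hochberg adjustment, and 1635 had an unadjusted p of at most 0.05. Over all genes tested the median log2 fold change was 0.00, with quartiles of -0.10 and 0.09. The description below follows 46 lists of genes by cell type and function, which held 935 genes, of which 903 were tested, and 1 of these, *Mrpl27*, passed the threshold. A list is therefore described by how many of its members lay above or below 0, by its median and by its summed CPM in each library, and every member other than *Mrpl27* that is named did not pass the threshold in this test. Of all genes tested, 1.43% were higher and 1.18% lower in null libraries without overlap of the groups, so a list can hold such a gene without a shift. In whole tissue, fewer cells of a type and less RNA in each cell cannot be told apart. The p-values measure the spread between the libraries of each group, each taken as 1 mouse.

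Some libraries stood apart. Choroid plexus markers, the genes of the epithelium that secretes cerebrospinal fluid, summed to 4656 CPM in WT library 3 and to 3955 CPM in null library 5, against 47.2 to 151 CPM in the other 8. Markers of dentate granule neurons were lowest in null libraries 1 and 2, at 228 and 281 CPM, and the nuclear-encoded subunits of oxidative phosphorylation were highest there, at 10005 and 10479 CPM against 8584 to 9374 CPM in the other 8. List medians that move with these libraries are also given without them. For the tissue label, dentate markers summed to between 333 and 504 CPM in WT hippocampus and between 127 and 147 CPM in WT neocortex, and markers of neocortical layers to between 98.1 and 135 CPM against 278 to 352 CPM.

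**Figure D1:**
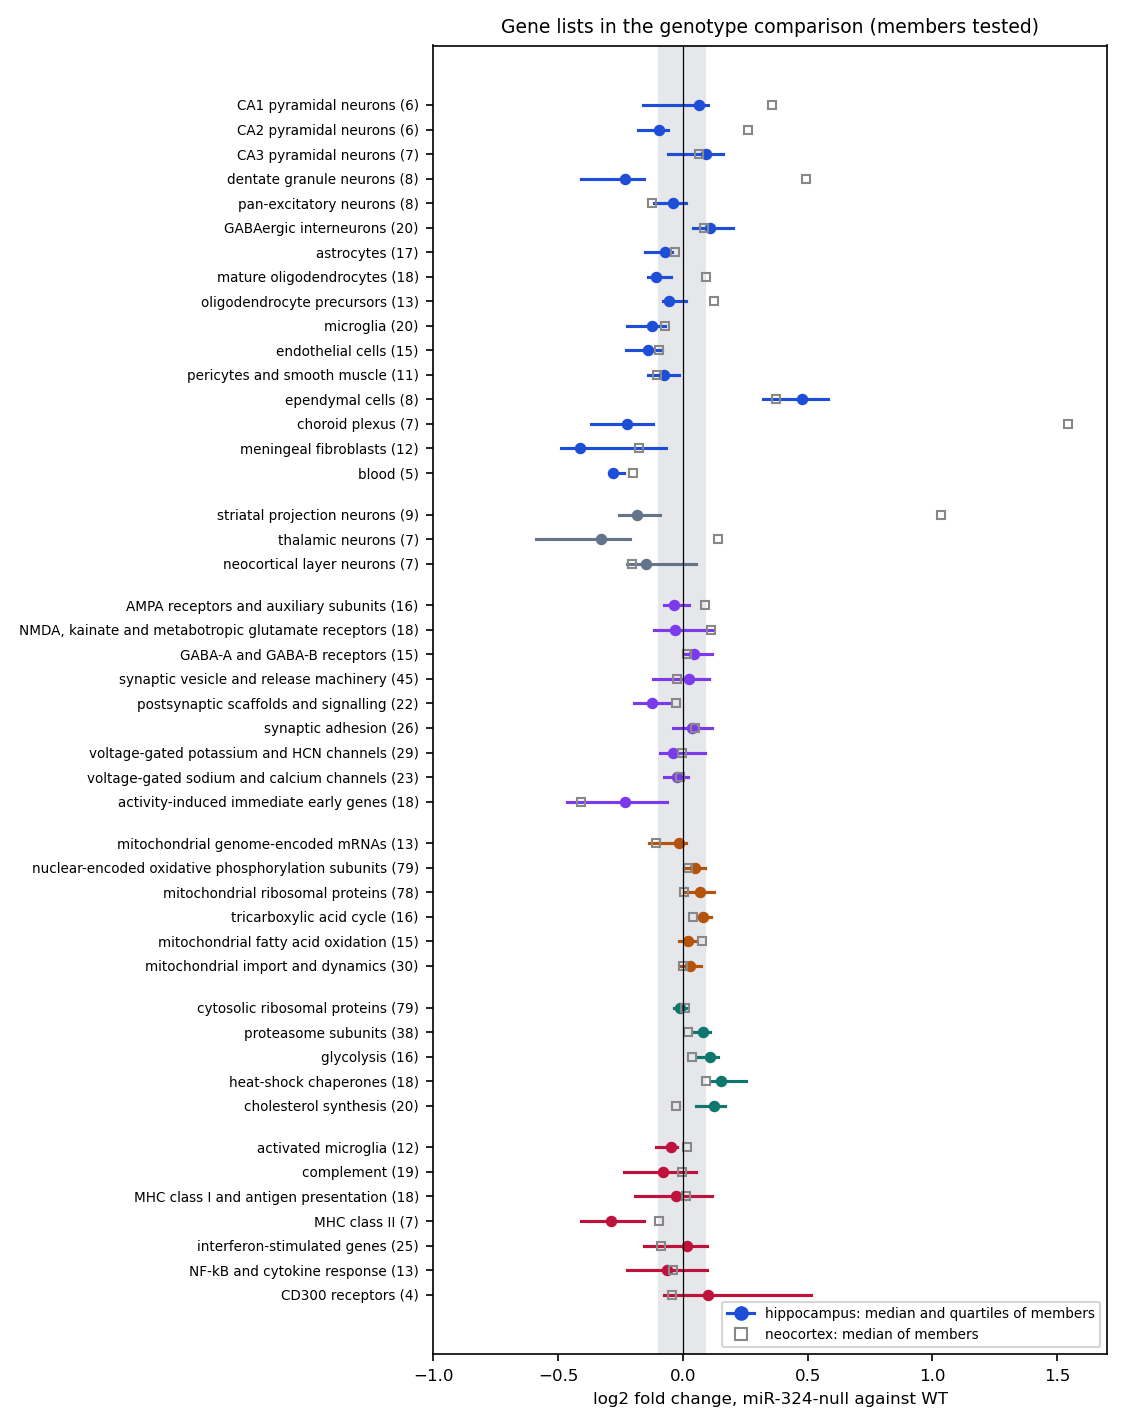
Median log2 fold change of null against WT hippocampus for each gene list (filled circle, horizontal axis), with the quartiles of its members as a line and the number of members tested in brackets; open squares are the medians of the neocortex. The grey band spans the quartiles of all genes tested in hippocampus (-0.10 to 0.09). Postsynaptic scaffolds, microglia and endothelial cells sit left of 0, and heat-shock chaperones, cholesterol synthesis, glycolysis and GABAergic interneurons right of it.

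Among neuronal markers, those of GABAergic interneurons lay mostly above 0 and those of dentate granule neurons mostly below it. Of 20 GABAergic markers tested, 17 had a log2 fold change above 0, where 50.3% of all genes did, and the median was 0.11. With an unadjusted p of at most 0.05, 5 were higher and 0 lower, against 5.34% and 5.71% of all genes. *Gad1*, a glutamate decarboxylase that makes GABA, stood at 242, 228, 256, 259 and 295 CPM in the WT libraries and at 289, 262, 292, 308 and 277 CPM in the null libraries. The groups overlapped, because WT library 5 was higher than 4 of the null libraries. Its log2 fold change was 0.16 (SE 0.07, adjusted p = 0.438 from edgeR's test). *Gad2*, the other decarboxylase, stood at 111 to 116 CPM in WT and at 137.6, 120, 131, 132 and 111 CPM in null libraries. Null library 5 alone was within the WT range, and the log2 fold change was 0.15 (SE 0.06, adjusted p = 0.374). *Dlx1*, a transcription factor of interneuron development, had a log2 fold change of 0.21 (SE 0.08). The summed CPM of the list was 1248 to 1476 in WT libraries and 1483 to 1588 in null libraries 1 to 4, and 1282 in null library 5. The median was 0.17 without the libraries rich in choroid plexus markers and 0.05 without null libraries 1 and 2.

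Of the 8 dentate granule markers, 7 lay below 0, with a median of -0.23. *Prox1*, the transcription factor that defines granule neurons, stood at 76.5 to 114 CPM in WT and at 53.8, 65.1, 68.8, 97.2 and 134 CPM in null libraries 1 to 5. *Lct* stood at 38.6 to 60.1 CPM in WT and at 13.1, 16.5, 39.3, 49.7 and 60.5 CPM in null libraries 1 to 5. In both genes null libraries 1 and 2 were the lowest of the 10 and null library 5 the highest. Without null libraries 1 and 2 the median of the list was 0.01 and both genes turned to above 0. Without the choroid plexus-rich libraries it was -0.35, and with single libraries left out it ran from -0.38 without null library 5 to -0.10 without null library 1. The log2 fold change of *Prox1* was -0.24 with all libraries, -0.48 without null library 5 and -0.12 without null library 1, and that of *Lct* was -0.45, -0.72 and -0.24. *Sema5b*, an axon guidance molecule, was the 1 marker whose groups did not overlap, at 14.4 to 17.8 CPM in WT and 11.5 to 13.9 CPM in null libraries. Across all genes tested 1.18% were lower and 1.43% higher in null libraries without overlap. Its log2 fold change was -0.39 (SE 0.08, adjusted p = 0.131 from edgeR's test).

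The pyramidal fields gave no common direction. Of the CA1 markers 4 of 6 lay above 0 (median 0.06), of the CA2 markers 1 of 6 (median -0.09) and of the CA3 markers 5 of 7 (median 0.09). The CA3 median was -0.07 without null libraries 1 and 2, and the CA1 median was -0.03 without null library 3. Of 8 markers of excitatory neurons in general 5 lay below 0 (median -0.04, and -0.16 to 0.01 with single libraries left out), and 2 were lower and 0 higher with an unadjusted p of at most 0.05. *Slc17a7*, the vesicular glutamate transporter of hippocampal excitatory neurons, stood at 1304 to 1399 CPM in WT and 1265 to 1544 CPM in null libraries (log2 fold change 0.01, SE 0.06). Its level was thus close to equal in the groups. *Neurod2*, a transcription factor of excitatory neurons, had a log2 fold change of -0.18 (SE 0.06, adjusted p = 0.348 from edgeR's test).

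The lists of glial and vascular markers had medians below 0. Of 20 microglial markers, 18 had a log2 fold change below 0, where 49.7% of all genes did, with a median of -0.12, and 7 had an unadjusted p of at most 0.05, all lower. *C1qb*, a subunit of the first complement component, stood at 55.8, 56.9, 48.5, 47.3 and 50.9 CPM in WT and at 40.1, 42.2, 41.0, 43.3 and 43.4 CPM in null libraries. *C1qc*, a further subunit, stood at 51.2, 47.8, 42.2, 41.3 and 42.7 CPM in WT and at 37.0, 39.4, 36.2, 38.9 and 39.7 CPM in null libraries. In both genes, 2 of 20 on the list, every null library was below every WT library, as in 1.18% of all genes tested. The log2 fold changes were -0.31 (SE 0.06, adjusted p = 0.105) and -0.24 (SE 0.07, adjusted p = 0.275) in edgeR's test. *C1qa*, which encodes the third chain of the same complex, had a log2 fold change of -0.05 (SE 0.11), and its groups overlapped at 41.0 to 58.1 CPM in WT and 41.5 to 57.6 CPM in null libraries. *Cx3cr1*, the fractalkine receptor of microglia, had a log2 fold change of -0.20 (SE 0.10). The list summed to 728 to 903 CPM in WT and 694 to 782 CPM in null libraries, and the sums overlapped. Its median was -0.13 without the choroid plexus-rich libraries and -0.17 without null libraries 1 and 2.

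Of 17 astrocyte markers 15 lay below 0 (median -0.07). *Slc4a4*, a bicarbonate transporter, stood at 155 to 216 CPM in WT and 129 to 178 CPM in null libraries (log2 fold change -0.32, SE 0.10, adjusted p = 0.299 from edgeR's test). *Aqp4*, the water channel of astrocyte endfeet, stood at 150, 150, 143, 149 and 124 CPM in WT and at 123, 114, 129, 136 and 104 CPM in null libraries (log2 fold change -0.24, SE 0.08, adjusted p = 0.318). WT library 5 lay inside the null range for both genes. *Slc1a2*, which clears glutamate from the synapse, had a log2 fold change of -0.17 (SE 0.10). Endothelial markers lay below 0 in 12 of 15 cases (median -0.14). *Abcb1a*, a drug efflux pump of the blood-brain barrier, stood at 46.1, 36.5, 37.0, 39.4 and 47.2 CPM in WT and at 25.9, 31.6, 35.4, 34.7 and 33.2 CPM in null libraries. Its groups did not overlap (log2 fold change -0.36, SE 0.10, adjusted p = 0.264). *Pecam1* (-0.28, SE 0.11), *Flt1* (-0.27, SE 0.12) and *Cldn5* (-0.23, SE 0.11), an adhesion molecule, a VEGF receptor and a tight junction protein, had log2 fold changes of the same sign with overlapping groups. The endothelial sum was 434 to 452 CPM in null libraries 1 to 4 and 575 CPM in null library 5, against 474 to 574 CPM in WT. The endothelial median was -0.20 without the choroid plexus-rich libraries, -0.22 without null library 5 alone and -0.10 without null libraries 1 and 2. Pericyte and smooth muscle markers lay below 0 in 10 of 11 cases (median -0.08, and 0.03 without null libraries 1 and 2).

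Markers of mature oligodendrocytes lay below 0 in 16 of 18 cases (median -0.11), and none had an unadjusted p of at most 0.05 in edgeR's test. The list summed to 7285, 8790, 6956, 4974 and 6021 CPM in WT libraries 1 to 5 and to 6346, 6599, 6612, 6688 and 5167 CPM in null libraries. The spread within WT was wider than the difference between the groups, and without WT library 2 the median was 0.01. *Mbp*, myelin basic protein, had a log2 fold change of -0.14 (SE 0.13). Of 13 markers of oligodendrocyte precursors 9 lay below 0 (median -0.05).

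Among markers of neighbouring tissue and blood, the choroid plexus and blood medians changed sign with single libraries left out, and the striatal and thalamic medians did not. The choroid plexus list, of which 7 of 12 genes were tested, had a median of -0.23 in all libraries and of 1.646 without WT library 3. Ependymal markers, of the ciliated lining of the ventricles, had a median of 0.48 and summed to 12.2 to 54.7 CPM in WT and 13.3 to 42.0 CPM in null libraries. Meningeal fibroblast markers had a median of -0.41, and of 0.02 without null libraries 1 and 2. Blood markers lay below 0 in 5 of 5 cases (median -0.28), with the highest sum, 1385 CPM, in WT library 3, and above 0 in 5 of 5 (median 0.24) without the choroid plexus-rich libraries. Striatal markers summed to 305 to 338 CPM in WT and 282 to 307 CPM in null libraries (median -0.18). Thalamic markers lay below 0 in 6 of 7 cases (median -0.33), with the highest sum, 164 CPM, in WT library 5. With single libraries left out the striatal median ran from -0.26 to -0.11 and the thalamic median from -0.37 to -0.24. The part of neighbouring tissue in the list medians above and below was not tested beyond the values without these libraries.

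**Figure D2:**
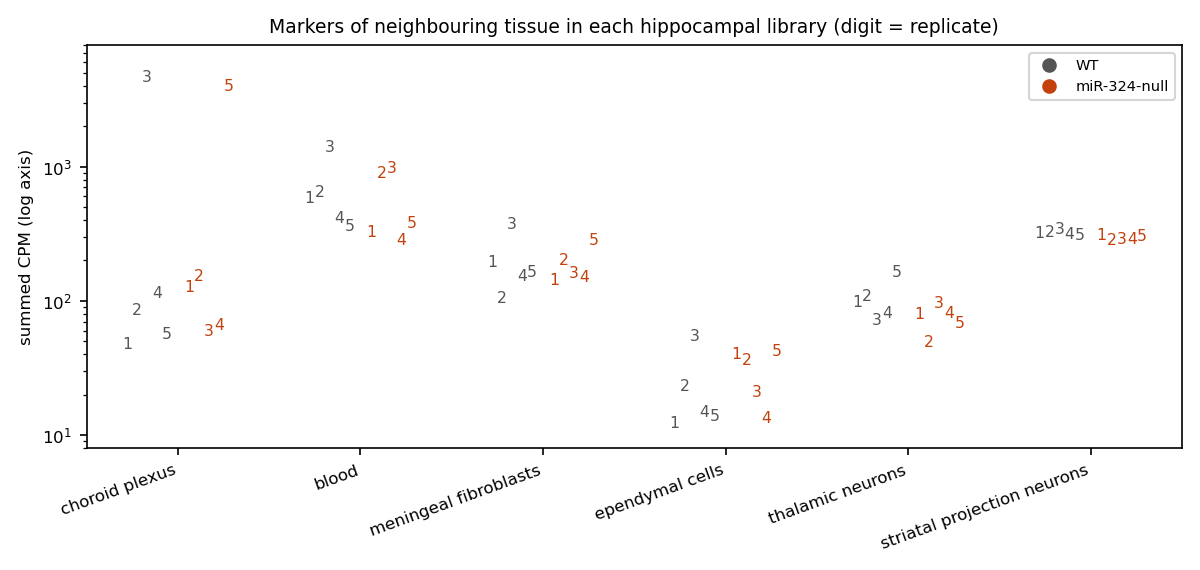
Summed CPM of marker lists of neighbouring tissue and blood (log axis) in each hippocampal library, with WT in grey and null in orange and the digit giving the replicate. Choroid plexus markers sit at 4656 CPM in WT library 3 and 3955 CPM in null library 5 and between 47.2 and 151 CPM in the others.

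Of the synaptic lists, postsynaptic scaffolds and signalling molecules were the most one-sided. They hold receptors at the postsynaptic density and tie them to kinases and the actin cytoskeleton. Of 22 members 21 lay below 0, with a median of -0.12 (neocortex -0.03), and 7 had an unadjusted p of at most 0.05, all lower. *Shank1*, a master scaffold of excitatory synapses, stood at 681, 676, 619, 639 and 598 CPM in WT and at 603, 496, 570, 508 and 507 CPM in null libraries. Null library 1 was the 1 null library inside the WT range, and the log2 fold change was -0.26 (SE 0.07, adjusted p = 0.232 from edgeR's test). *Shank2*, its paralogue, stood at 203 to 245 CPM in WT and 169 to 206 CPM in null libraries (log2 fold change -0.20, SE 0.07, adjusted p = 0.335). *Camk2a*, the calcium-dependent kinase that drives synaptic potentiation, stood at 4977, 4987, 4656, 4722 and 3844 CPM in WT and at 3672, 3919, 3817, 4224 and 4624 CPM in null libraries. WT library 5 lay among the null libraries, and the log2 fold change was -0.19 (SE 0.08, adjusted p = 0.4). In neocortex the log2 fold changes of *Shank1*, *Shank2* and *Camk2a* were of the same sign, at -0.22, -0.13 and -0.18. The list summed to 13081 to 13626 CPM in WT libraries 1 to 4 and 11626 CPM in WT library 5, against 11180 to 12566 CPM in null libraries. *Camk2a*, the member with the highest CPM, is a large part of these sums and is also on the list of excitatory neurons in general. The median was -0.14 without the choroid plexus-rich libraries and -0.07 without null libraries 1 and 2, which had the lowest sums.

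The receptors themselves gave smaller values. Of 16 AMPA receptor subunits and auxiliary proteins 11 lay below 0 (median -0.04, and 0.04 without null libraries 1 and 2). *Gria1*, the AMPA subunit with the best known part in synaptic plasticity, had a log2 fold change of 0.08 (SE 0.07), and *Cacng4*, an auxiliary subunit, one of -0.20 (SE 0.07, adjusted p = 0.361 from edgeR's test). NMDA, kainate and metabotropic glutamate receptors lay above 0 in 8 of 18 cases (median -0.03, and 0.07 without null libraries 1 and 2). *Grin3a*, a modulatory NMDA subunit, stood at 29.5 to 42.4 CPM in WT and 38.3 to 46.8 CPM in null libraries (log2 fold change 0.26, SE 0.09, adjusted p = 0.34), and *Grin2c* had a log2 fold change of -0.16 (SE 0.06). The NMDA subunits named thus pointed in opposite directions. Of 15 GABA-A and GABA-B receptor subunits 13 lay above 0 (median 0.04, and 0.13 without null libraries 1 and 2). *Gabra5*, the subunit of extrasynaptic receptors that is abundant in hippocampus, stood at 170 to 206 CPM in WT and 199 to 228 CPM in null libraries (log2 fold change 0.15, SE 0.06, adjusted p = 0.412), and *Gabra2* had a log2 fold change of 0.16 (SE 0.07).

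Presynaptic genes did not share a direction. Of 45 genes of synaptic vesicles and release 26 lay above 0 (median 0.02), and 5 were higher and 5 lower with an unadjusted p of at most 0.05. *Doc2b*, a calcium sensor of spontaneous release, stood at 126, 143, 138.4, 146 and 124 CPM in WT and at 98.9, 99.1, 103, 97.9 and 122 CPM in null libraries. Every null library was below every WT library, with null library 5 just under the lowest WT value, and the log2 fold change was -0.38 (SE 0.07, adjusted p = 0.091 from edgeR's test). *Napa*, which helps to take apart the fusion complex after release, was the other gene with groups that did not overlap, at 252 to 264 CPM in WT and 212 to 245 CPM in null libraries (log2 fold change -0.17, SE 0.05). Thus 2 of 45 genes were lower without overlap, against 1.18% of all genes tested. *Syt7*, a sensor of asynchronous release, stood at 392 to 452 CPM in WT and 301 to 395 CPM in null libraries (log2 fold change -0.31, SE 0.08, adjusted p = 0.187). *Snap25* (0.11, SE 0.05) and *Syp* (0.13, SE 0.07), a fusion protein and a vesicle protein of nearly all synapses, had log2 fold changes above 0.

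Adhesion molecules that span the synaptic cleft lay above 0 in 16 of 26 cases (median 0.04, and 0.10 without null libraries 1 and 2). *Slitrk4*, a transmembrane inducer of synapse formation, stood at 33.0, 30.4, 30.4, 30.03 and 27.8 CPM in WT and at 37.5, 38.0, 43.8, 44.7 and 38.3 CPM in null libraries. Every null library was above every WT library (log2 fold change 0.42, SE 0.07, adjusted p = 0.052 from edgeR's test). *Mdga1*, which blocks the binding of neuroligins to neurexins, was lower in every null library, at 69.1 to 75.9 CPM against 77.4 to 86.2 CPM (log2 fold change -0.20, SE 0.05, adjusted p = 0.187).

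Of the ion channels that set excitability, 11 of 29 potassium and HCN channel genes lay above 0 (median -0.04) and 9 of 23 sodium and calcium channel genes (median -0.03). *Hcn2*, a pacemaker channel subunit, stood at 107 to 126 CPM in WT and at 94.1, 91.3, 108, 91.1 and 87.1 CPM in null libraries, of which null library 3 lay in the WT range (log2 fold change -0.27, SE 0.07, adjusted p = 0.213 from edgeR's test). *Cacna1h*, a T-type calcium channel, had a log2 fold change of -0.30 (SE 0.10, adjusted p = 0.348). *Cacnb2*, an auxiliary calcium channel subunit, was the 1 channel gene whose groups did not overlap, at 47.2 to 56.8 CPM in WT and 58.4 to 62.0 CPM in null libraries (log2 fold change 0.15, SE 0.06). With 1.43% of all genes higher and 1.18% lower without overlap, 1 such gene is no result about the channels. Without null libraries 1 and 2 the medians of the channel lists were 0.06 and 0.02.

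Immediate early genes, which neurons transcribe within minutes of activity, lay below 0 in 16 of 18 cases, with a median of -0.23 (neocortex -0.41). None had an unadjusted p of at most 0.05. The median was -0.45 without null library 3 and -0.14 without WT library 2, the ends of its range with single libraries left out. *Egr1*, a transcription factor of this class, stood at 122, 228, 145, 102 and 191 CPM in WT and at 79.7, 78.1, 187, 99.1 and 112 CPM in null libraries. *Fos* stood at 5.73, 27.3, 15.4, 7.55 and 20.1 CPM in WT and at 4.14, 8.49, 22.1, 4.55 and 6.93 CPM in null libraries. Null library 3 was high in both genes, and the WT libraries themselves differed by more than the group means did. The log2 fold changes were -0.50 (SE 0.26, adjusted p = 0.494) and -0.70 (SE 0.49, adjusted p = 0.634) in edgeR's test, and that of *Egr2*, a related factor, was -0.98 (SE 0.51, adjusted p = 0.497). Without null library 3 the log2 fold changes of *Egr1*, *Fos* and *Egr2* were -0.77, -1.33 and -1.49, and without WT library 2 they were -0.33, -0.38 and -0.51.

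**Figure D3:**
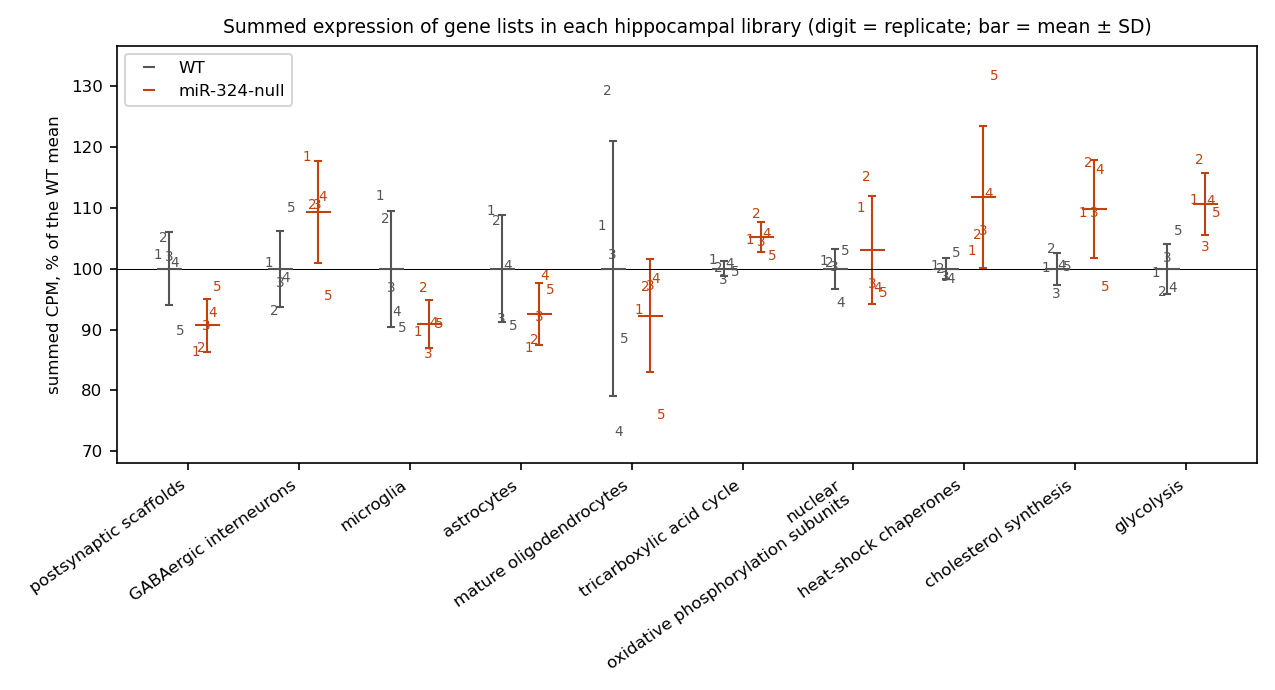
Summed CPM of 10 gene lists in each hippocampal library as a percentage of the WT mean (vertical axis), with WT in grey and null in orange, the digit giving the replicate and the bar the mean ± SD of 5 libraries. The tricarboxylic acid cycle and the heat-shock chaperones have sums that do not overlap, and oxidative phosphorylation is highest in null libraries 1 and 2.

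Mitochondrial genes were described in 6 lists, by genome of origin and function. The 13 mRNAs of the mitochondrial genome, which encode core subunits of the respiratory chain, lay above 0 in 6 cases (median -0.01, and -0.10 without null libraries 1 and 2). *mt-Nd5*, a subunit of complex I, stood at 6326, 5360, 4866, 5302 and 5956 CPM in WT and at 4811, 4010, 3681, 4767 and 4699 CPM in null libraries. Its groups did not overlap, and the log2 fold change was -0.34 (SE 0.09, adjusted p = 0.241 from edgeR's test). *mt-Nd6*, the 1 protein gene of the light strand, stood at 1236 to 1595 CPM in WT and 823 to 1251 CPM in null libraries (log2 fold change -0.33, SE 0.11, adjusted p = 0.321). *mt-Co1*, the catalytic subunit of complex IV, had a log2 fold change of -0.17 (SE 0.07). That of *mt-Nd1*, like *mt-Nd5* and *mt-Nd6* a subunit of complex I, was 0.15 (SE 0.07), so subunits of complex I pointed in opposite directions.

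Nuclear-encoded subunits of oxidative phosphorylation lay above 0 in 63 of 79 cases (median 0.05), and without null libraries 1 and 2 the median was -0.05 and 21.5% lay above 0. *Ndufa9*, a complex I subunit, stood at 76.8 to 78.7 CPM in WT and at 86.7, 91.8, 81.8, 88.6 and 80.8 CPM in null libraries, which did not overlap (log2 fold change 0.14, SE 0.05, adjusted p = 0.325 from edgeR's test). *Uqcrc2*, a complex III core protein, was also higher without overlap, at 169 to 177 CPM and 181 to 191 CPM (log2 fold change 0.11, SE 0.04). They were 2 of 79 genes, where 1.43% of all genes tested were higher without overlap. *Ndufa12* had the largest log2 fold change of the list, 0.48 (SE 0.16, adjusted p = 0.332), with 53.2 to 93.8 CPM in WT and 81.7 to 108 CPM in null libraries. Several members of this list and of the ribosomal lists have processed pseudogenes whose reads can be divided among the copies, so their values are less certain.

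Mitochondrial ribosomal proteins, which translate the mitochondrial mRNAs, lay above 0 in 66 of 78 cases (median 0.07, and 0.00 without null libraries 1 and 2). *Mrpl27*, a protein of the large subunit, was the 1 list member that passed the threshold. It stood at 26.0, 26.9, 25.8, 26.5 and 26.5 CPM in WT and at 11.3, 10.4, 9.95, 9.77 and 10.8 CPM in null libraries, and it fell by 1.34 on the log2 scale (SE 0.06, adjusted p = 2.51e-07 from edgeR's test). The groups were far apart, and the neocortex gave -1.42. *Mrpl10*, of the same subunit, stood at 48.4, 47.7, 50.02, 49.4 and 46.3 CPM in WT and at 63.7, 71.8, 57.4, 56.8 and 59.6 CPM in null libraries, also without overlap but in the other direction (log2 fold change 0.35, SE 0.07, adjusted p = 0.082).

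Enzymes of the tricarboxylic acid cycle, which oxidises acetyl groups in the mitochondrial matrix, lay above 0 in 14 of 16 cases (median 0.08, neocortex 0.04), and 5 had an unadjusted p of at most 0.05, all higher. The list summed to 2713, 2678, 2626, 2696 and 2663 CPM in WT and to 2802, 2916, 2791, 2827 and 2733 CPM in null libraries. Every null sum was above every WT sum. The median was 0.08 without the choroid plexus-rich libraries, 0.06 without null libraries 1 and 2, and 0.07 to 0.09 with single libraries left out. *Idh3b* and *Idh3a*, subunits of the isocitrate dehydrogenase of the cycle, had log2 fold changes of 0.12 (SE 0.04, adjusted p = 0.349) and 0.14 (SE 0.05, adjusted p = 0.351) in edgeR's test. *Idh3b* stood at 197 to 209 CPM in WT and 217 to 232 CPM in null libraries and did not overlap. *Dlat*, of the pyruvate dehydrogenase complex, did not overlap either, at 84.7 to 89.1 CPM and 90.3 to 98.1 CPM (log2 fold change 0.11, SE 0.04), and *Cs*, citrate synthase, had a log2 fold change of 0.08 (SE 0.04). Thus 2 of 16 genes were higher without overlap, against 1.43% of all genes tested.

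Fatty acid oxidation lay above 0 in 8 of 15 cases (median 0.02). Of 30 genes of mitochondrial import and dynamics 21 lay above 0 (median 0.03, and -0.04 without null libraries 1 and 2). *Phb*, a prohibitin of the inner membrane, stood at 63.9, 68.2, 69.1, 62.2 and 64.3 CPM in WT and at 58.8, 52.0, 44.6, 45.2 and 48.5 CPM in null libraries. The groups did not overlap (log2 fold change -0.40, SE 0.07, adjusted p = 0.082 from edgeR's test). Like *Mrpl27* and *Mrpl10*, *Phb* is on chromosome 11. *Immt*, which shapes the cristae, did not overlap in the other direction, at 110 to 116 CPM and 120 to 128 CPM (log2 fold change 0.12, SE 0.04).

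**Figure D4:**
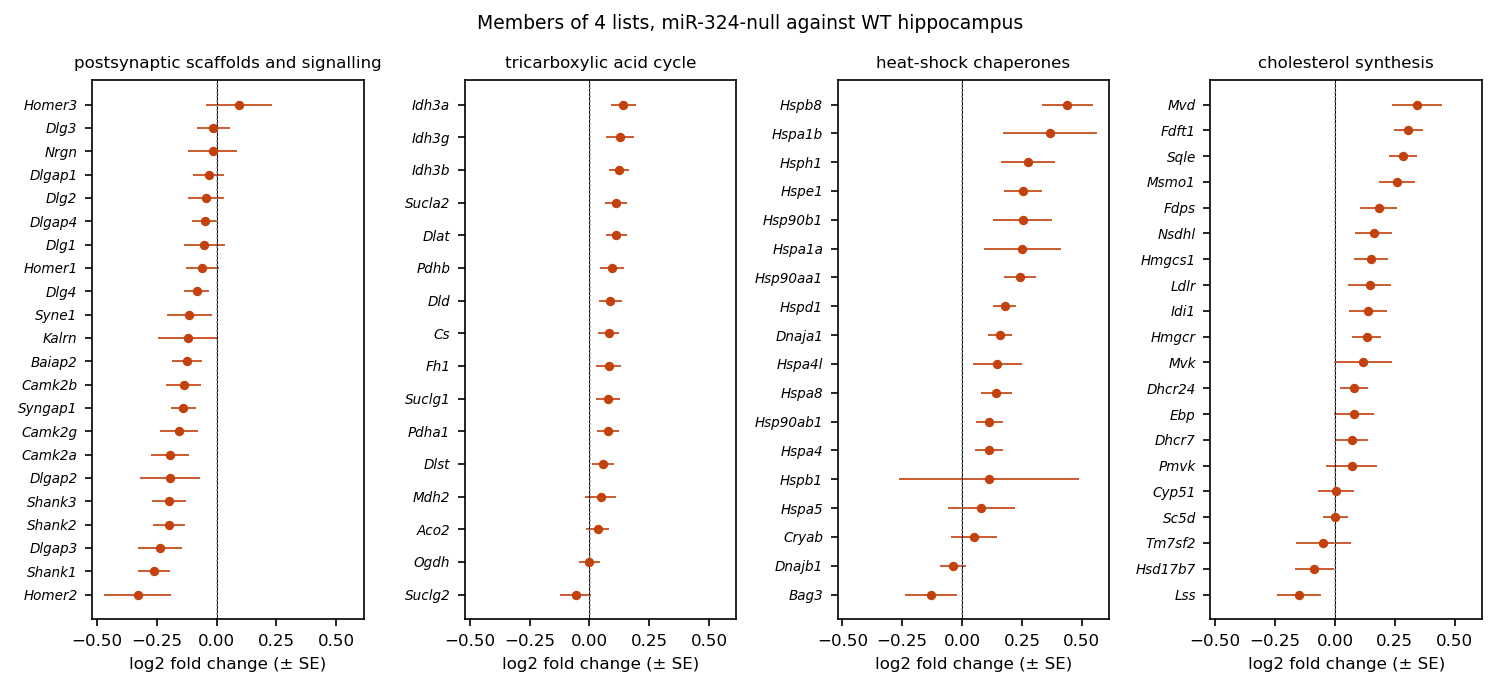
Log2 fold change ± SE of null against WT hippocampus (horizontal axis) for every member tested of 4 lists. Of the postsynaptic scaffolds 21 of 22 sit left of 0, and 14 of 16 tricarboxylic acid cycle genes, 16 of 18 chaperones and 17 of 20 cholesterol synthesis genes right of it. None of these members passed the threshold on the adjusted p.

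Among housekeeping functions, heat-shock chaperones, which hold and refold unfolded proteins, lay above 0 in 16 of 18 cases, with a median of 0.15 (neocortex 0.09), and 7 had an unadjusted p of at most 0.05, all higher. *Hsp90aa1*, an inducible Hsp90, stood at 881, 856, 848, 869 and 863 CPM in WT and at 927, 960, 978, 1035 and 1201 CPM in null libraries. *Hspb8*, a small heat-shock protein, stood at 11.1, 13.7, 14.1, 10.3 and 11.4 CPM in WT and at 16.7, 17.4, 14.7, 14.9 and 18.6 CPM in null libraries. Every null library was above every WT library in both genes, with null library 5 the highest. Their log2 fold changes were 0.24 (SE 0.07, adjusted p = 0.264) and 0.44 (SE 0.11, adjusted p = 0.187) in edgeR's test. *Hspd1*, the mitochondrial Hsp60 (0.18, SE 0.05), and *Dnaja1*, a co-chaperone (0.16, SE 0.05), likewise did not overlap, and *Hspa8* (0.14, SE 0.06), the constitutive Hsp70, and *Hspa1a* (0.25, SE 0.16), an inducible one, did. Thus 4 of 18 genes were higher without overlap, against 1.43% of all genes tested. The list summed to 5494 to 5734 CPM in WT and to 5755, 5900, 5932, 6273 and 7360 CPM in null libraries, all above WT. Without the choroid plexus-rich libraries, null library 5 among them, the median was 0.09, and without null libraries 1 and 2 it was 0.20.

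Cholesterol synthesis lay above 0 in 17 of 20 cases in hippocampus (median 0.13) and had a median of -0.03 in neocortex, a difference that was not tested for the list. *Fdft1*, squalene synthase, stood at 71.5, 77.5, 67.9, 73.3 and 75.8 CPM in WT and at 93.6, 98.8, 85.7, 92.9 and 82.0 CPM in null libraries. *Sqle*, squalene epoxidase, the next enzyme of the pathway, stood at 45.8, 45.2, 42.6, 47.7 and 47.8 CPM in WT and at 58.5, 56.5, 53.3, 59.6 and 51.1 CPM in null libraries. In both genes, 2 of 20 on the list, every null library was above every WT library, as in 1.43% of all genes tested. The log2 fold changes were 0.31 (SE 0.06, adjusted p = 0.1) and 0.28 (SE 0.06, adjusted p = 0.105) in edgeR's test, and *Hmgcs1*, an early enzyme of the pathway, had one of 0.15 (SE 0.07). The list summed to 908 to 978 CPM in WT, to 1034 to 1112 CPM in null libraries 1 to 4 and to 920 CPM in null library 5. The median was 0.15 without the choroid plexus-rich libraries and 0.08 without null libraries 1 and 2.

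Glycolysis lay above 0 in 13 of 16 cases (median 0.11, and 0.03 without null libraries 1 and 2). *Gapdh* stood at 1386, 1327, 1839, 1275 and 1906 CPM in WT and at 2089, 2155, 1888, 2422 and 2401 CPM in null libraries (log2 fold change 0.50, SE 0.12, adjusted p = 0.187 from edgeR's test). WT library 5 lay just above the lowest null value, and *Gapdh* has many processed pseudogenes, which makes its value uncertain. *Ldha*, lactate dehydrogenase A, had a log2 fold change of 0.18 (SE 0.06, adjusted p = 0.349) and *Hk1*, the brain hexokinase, one of 0.07 (SE 0.05). Proteasome subunits lay above 0 in 33 of 38 cases (median 0.08, and 0.02 without null libraries 1 and 2). *Psmc2* and *Psmd1*, of the regulatory particle, did not overlap, with log2 fold changes of 0.12 (SE 0.05) and 0.11 (SE 0.05). They were 2 of 38 genes, where 1.43% of all genes tested were higher without overlap. Cytosolic ribosomal proteins lay above 0 in 34 of 79 cases (median -0.01), and in 1.27% of cases without null libraries 1 and 2 (median -0.11), so these 2 libraries were high for ribosomal proteins as well.

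The immune lists gave no common shift. Complement genes lay below 0 in 13 of 19 cases (median -0.08). The 2 genes that did not overlap, both lower, were *C1qb* and *C1qc*, which are also on the microglial list. Of all genes tested 1.18% were lower without overlap. *C4b*, a component of the classical pathway that astrocytes express in the ageing brain, had a log2 fold change of 0.13 (SE 0.09). Of 12 genes of activated microglia tested, of 17 listed, 9 lay below 0 (median -0.05). MHC class I and antigen presentation lay above 0 in 7 of 18 cases (median -0.03), MHC class II in 1 of 7 (median -0.29, and 0.00 without null libraries 1 and 2), interferon-stimulated genes in 13 of 25 (median 0.02) and the NF-kB and cytokine response in 6 of 13 (median -0.06). Of the CD300 receptors, lipid-sensing receptors of myeloid cells, 4 of 9 were tested (median 0.10). *Cd300lf* stood at 0.781, 0.969, 0.324, 1.02 and 1.59 CPM in WT and at 2.66, 2.30, 2.33, 2.01 and 2.08 CPM in null libraries, and the groups did not overlap (log2 fold change 1.29, SE 0.30, adjusted p = 0.172 from edgeR's test). *Cd300c2* (0.26, SE 0.14) and *Cd300a* (-0.16, SE 0.16), of the same gene cluster, had smaller log2 fold changes and overlapping groups.

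The same counts were read at the level of transcripts, to see whether the make-up of a gene's mRNA differed where its sum did not. Usage is shown as the share of a transcript in the TPM of its gene, in percent. The tests of usage and the minimum share were instead applied to estimated counts, in which longer transcripts take a larger share than in TPM. Of 7457 genes with at least 2 transcripts kept, 3 (0.0402%) had an adjusted p of at most 0.05 in edgeR's test of differential usage, *Fmnl1* (1.41e-15), *Cep131* (2.56e-09) and *Clk2* (0.0049), and 70 (0.939%) had an unadjusted p of at most 0.05. Of 20295 transcripts, 74 were higher and 76 lower in share in null libraries without overlap, 0.739% in all. None of the 3 genes is on a list. By group, 2 of 119 genes of the synaptic lists had an unadjusted p of at most 0.05, 2 of 139 of the mitochondrial lists, 2 of 107 of the housekeeping lists, 1 of 82 of the cell type lists and 0 of 40 of the immune lists. No list member thus had a called change in transcript usage in edgeR's test at these settings. Under the alternatives given below some did, among them *Mrpl10* in edgeR's test at a minimum share of 1% and *Gapdh* in limma's diffSplice. *Gfap* and *Mrpl27* were called by another test given below. In simulated hippocampal data of 7078 genes edgeR's usage test recovered 29.5% of the genes changed by 2 on the log2 scale, so a missing call says little.

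*Fmnl1*, a formin that builds actin filaments, is on chromosome 11 at 103171107 to 103198901. The protein-coding transcript *Fmnl1*-203 took 18.4%, 13.6%, 15.5%, 18.1% and 14.6% of the gene in WT libraries, from 400 to 620 estimated counts. It was at 0 counts in 4 null libraries and at 0.00189 counts in null library 3, and the neocortex showed the same, with 13.3% to 20.7% in WT. *Fmnl1*-207, also protein coding, took 10.6%, 10.3%, 15.04%, 12.9% and 9.93% in WT and 24.8%, 34.9%, 32.7%, 34.01% and 36.5% in null libraries. The groups did not overlap for either transcript. The whole gene had a log2 fold change of -0.18 (SE 0.05, adjusted p = 0.279 from edgeR's test). The transcripts differ by an 18-base exon that only 207 has, at chr11:103183016-103183033, and by a 99-base exon near the 3′ end that only 203 of the pair has, at chr11:103198135-103198233. The lines below give the sequence across the first of these places on the forward strand of GRCm38, with the short exon in capitals in 207 and the bases after the junction from 103182767 to 103185621 in capitals in 203.
Fmnl1-207: catcaaGTGCCCCCCTTCTCCCCGgctgac
Fmnl1-203: tcgcctgaccatcaaGCTGACCCCTGCCCA

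*Cep131*, a protein of centriolar satellites, is on chromosome 11 at 120064430 to 120086827. *Cep131*-202 was at or next to 0 counts in every WT library of both tissues and took 4.07%, 4.93%, 14.8%, 28.5% and 22.5% in null libraries 1 to 5, from 49.3 to 149 counts. *Cep131*-201 took 34.4%, 25.9%, 23.3%, 36.0% and 20.6% in WT and 12.8%, 11.7%, 20.4%, 15.3% and 11.99% in null libraries. Neither transcript overlapped, and the log2 fold change of the whole gene was 0.10 (SE 0.14). Both transcripts have 26 exons and differ at 1 intron, as annotated, which starts after 120073128 and ends before 120072976 in 201 and starts after 120073123 and ends before 120072974 in 202, on the reverse strand. The 30 bases across that junction show how close they are, with the bases after it in capitals.
Cep131-201: caggcagccattcagGAACAACAGAAACGA
Cep131-202: agccattcaggtactACAACAGAAACGAGC
*Clk2*, a kinase of splicing factors on chromosome 3, had *Clk2*-201 at 4.08%, 29.0%, 15.5%, 15.1% and 20.2% in WT and at 2.70%, 0%, 0%, 0% and 0.625% in null libraries, where the zeros stand for less than 0.001 counts. In the neocortex the ranges of *Clk2*-201 overlapped, at up to 22.5% in WT and 15.6% in null libraries. *Clk2* was not called without the choroid plexus-rich libraries, at a minimum share of 10%, with a replicate block, with the log odds of the shares in limma or with limma's diffSplice, and *Cep131* was not called with the last of these (adjusted p = 0.14).

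A fit in limma of the log odds of each share of estimated counts was chosen after seeing the data. It called *Fmnl1*, *Cep131*, *Gfap*, *Mrpl27* and *Nme1*, of which the last 3 are named here after their values were seen. *Gfap*, the intermediate filament of astrocytes on the astrocyte list, had adjusted p = 0.096 in edgeR's usage test and 0.000155 by log odds in limma. *Gfap*-202 took 8.42%, 8.40%, 8.76%, 9.17% and 8.90% in WT and 3.55%, 3.51%, 3.33%, 4.15% and 3.499% in null libraries. Its groups were far apart, also in the neocortex at 7.04% to 8.46% and 3.82% to 4.98%, while the whole gene had a log2 fold change of -0.11 (SE 0.08, adjusted p = 0.649 from edgeR's test). *Gfap*-202 ends in another last exon than *Gfap*-201, an exon of 1355 bases at chr11:102890166-102891520 in place of the last 2 exons. The 30 bases across the end of the shared exon at 102891911, on the reverse strand, show where they part, with the bases that follow it in capitals.
Gfap-201: acctccagatccgagAAACCAGCCTGGACA
Gfap-202: acctccagatccgagGGGGCAAAAGCACCA

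In *Mrpl27*, the share of the coding transcript *Mrpl27*-201 was 67.7%, 68.9%, 68.3%, 76.5% and 66.8% in WT and 28.0%, 25.2%, 29.4%, 38.0% and 44.4% in null libraries. *Mrpl27*-204, annotated as a processed transcript without a coding sequence, took 15.3%, 9.81%, 6.25%, 11.2% and 21.9% in WT and 68.9%, 56.6%, 65.4%, 62.0% and 44.5% in null libraries. Neither overlapped, so the lower sum of the gene went with a larger share of the non-coding form (adjusted p = 0.0148 by log odds in limma, 1 in edgeR's usage test). In estimated counts *Mrpl27*-201 was 261 to 334 in WT and 43.2 to 83.4 in null libraries, and *Mrpl27*-204 was 24.1 to 70.01 and 68.6 to 102. The transcripts join the first exon, which ends at 94653841 on the forward strand of chromosome 11, to different starts of the second, 94656487 in 201 and 94656408 in 204, and the bases after the junction are in capitals.
Mrpl27-201: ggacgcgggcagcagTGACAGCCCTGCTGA
Mrpl27-204: ggacgcgggcagcagCTTGGCAAATGGTCC
*Nme1*, a nucleoside diphosphate kinase on chromosome 11, had *Nme1*-203 at 17.1% to 17.9% in WT and at 27.8% to 33.9% in null libraries (adjusted p = 0.0104 by log odds in limma, 1 in edgeR's usage test). In estimated counts *Nme1*-203 overlapped, at 961 to 1287 in WT and 995 to 1241 in null libraries. *Nme1*-201 was lower, at 423 to 573 in WT and 189 to 287 in null libraries. The whole gene had a log2 fold change of -0.27 (SE 0.09, adjusted p = 0.317 from edgeR's test).

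**Figure D5:**
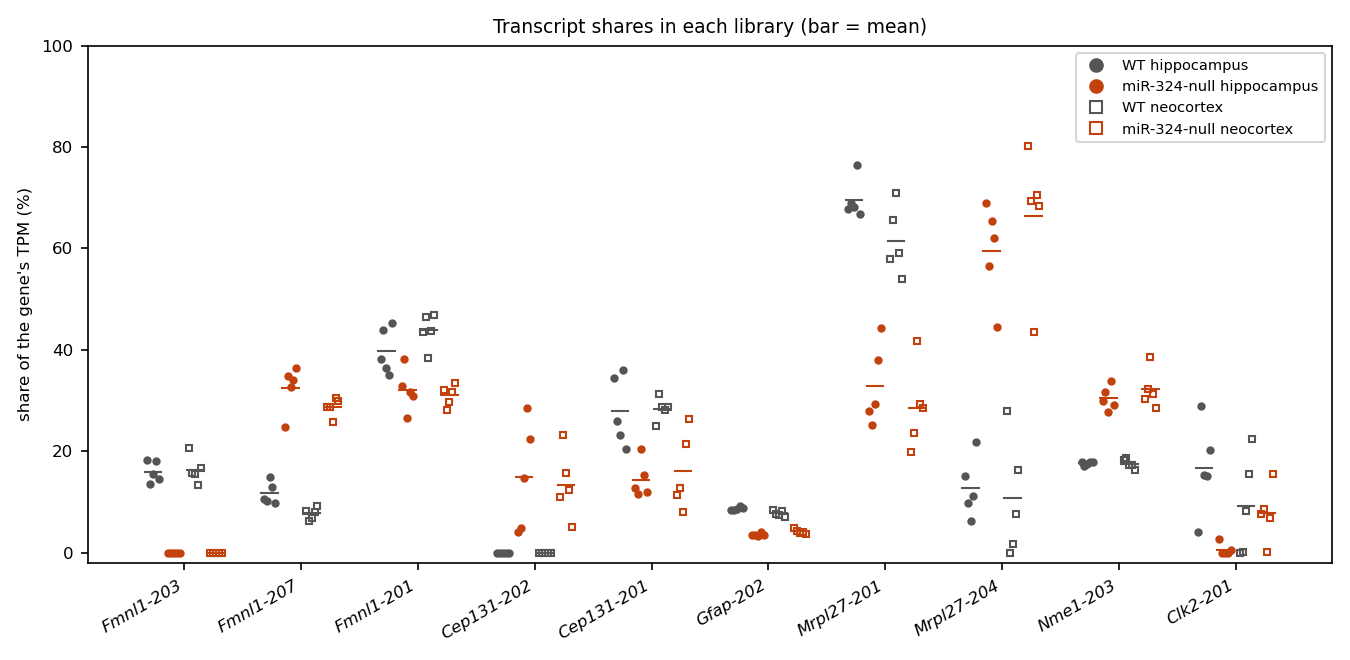
Share of single transcripts in the TPM of their gene (vertical axis, percent) in each library, filled circles for hippocampus and open squares for neocortex, with WT in grey, null in orange and a bar at the mean. Fmnl1-203 is at 0 in every null library, Cep131-202 is at 0 in every WT library, and Gfap-202 lies between 8.40% and 9.17% in WT and between 3.33% and 4.15% in null hippocampus.

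Of these 6 genes, 5 are on chromosome 11, which also carries *Mir324*. Of the 1588 transcripts tested on chromosome 11, 16 were higher and 13 lower in share without overlap, or 1.83%, against 58 and 63 of the 18707 on the other chromosomes, or 0.647%. The 5 genes start at 93956979 or beyond, far from the locus at 70012043 to 70012131. Whether these differences come from the loss of miR-324 or from sequence carried along with the locus cannot be told apart here. The same holds for the gene-level differences of list members on chromosome 11, among them *Mrpl27*, *Mrpl10*, *Phb*, *Doc2b* and *Cd300lf*. *Slitrk4*, *Fdft1*, *Sqle* and *C1qb*, also among the smallest p of their lists, are on other chromosomes. The counting divides reads among transcripts of near-identical sequence, and its estimation error is not part of the tests.

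Over all genes, the share of TPM in annotated classes of transcripts was close between the groups. Transcripts marked for nonsense-mediated decay, a pathway that removes mRNAs with an early stop codon, took 2.43%, 2.53%, 2.47%, 2.57% and 2.58% in WT and 2.63%, 2.61%, 2.62%, 2.66% and 2.57% in null libraries. Null library 5 lay in the WT range (means 2.52% ± 0.06 and 2.62% ± 0.03, SD, n = 5, two-sided exact permutation p = 0.0159, adjusted over 5 classes 0.0794). As a share of estimated counts the means of this class were 2.35% ± 0.07 and 2.43% ± 0.07 (exact permutation p = 0.103, adjusted 0.258). Protein-coding transcripts took 81.7% ± 0.48 and 81.8% ± 0.50 (exact permutation p = 0.889), retained introns 5.63% ± 0.36 and 5.74% ± 0.22 (p = 0.603, same exact test), processed transcripts 5.40% ± 0.11 and 5.53% ± 0.07 (p = 0.0714, same exact test) and processed pseudogenes 1.07% ± 0.05 and 1.02% ± 0.08 (p = 0.278, same exact test). No class passed the threshold after adjustment.

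A fit of all 20 libraries tested where the genotype difference of a gene in hippocampus was unlike that in neocortex. Of 15391 genes 3 (0.0195%) passed the threshold in edgeR's test, 2 of them on the lists. *Mdga1* had a log2 fold change of -0.20 in hippocampus and 0.78 in neocortex, where it stood at 11.4 to 15.1 CPM in WT and 16.9 to 25.3 CPM in null libraries (difference 0.97, SE 0.12, adjusted p = 0.000687 from edgeR's test). *Sema5b* had -0.39 and 0.49 (difference 0.88, adjusted p = 0.0242). *Ndst4*, a heparan sulphate enzyme on no list, had -0.26 and 2.82 (difference 3.07, SE 0.47, adjusted p = 0.0163). Each difference rests on the neocortex at least as much as on the hippocampus. The fit takes all 20 libraries as independent. Whether same-numbered libraries of hippocampus and neocortex come from the same mouse is not given. Striatal markers summed to 334 to 663 CPM in WT neocortex and 426 to 988 CPM in null neocortex, against 282 to 338 CPM in all hippocampal libraries, and their part in these differences was not tested.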

How the data were processed

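RNA was extracted from whole tissue with a kit for total RNA, and libraries were made with a stranded mRNA kit and sequenced on a NextSeq 500. The authors quantified reads with kallisto against mouse transcripts of GRCm38 and deposited, for each sample and transcript, an estimated count and a TPM value. The submitters' processing notes list kallisto, DESeq2 and the build GRCh38, although the 115270 transcripts are mouse. Whether the counting used strand, and the estimation error of each count, are not given in the sources used here. An annotation of GRCm38 held 113580 of these identifiers, and the other 1690, with at most 0.556% of a sample's estimated counts, were not used. Counts were added up for 35580 genes, rounded and tested with edgeR 4.0.16 in R 4.3.3 (TMM, default filter on low counts, quasi-likelihood test, Benjamini-Hochberg adjustment, threshold 0.05). In counts simulated for 14670 genes in the genotype comparison, 200 of them changed by 1 on the log2 scale, the test recovered 85.5% with 5.53% false calls, and DESeq2 89.5% with 15.6% false calls. Usage was tested with edgeR's diffSpliceDGE on the estimated counts of transcripts with a mean share of at least 5% of the counts of their gene. In usage simulated for 7078 genes with 200 changes of 2 on the log2 scale, 20.3% of its calls were false, and with log odds in limma 3.58.1, 48% were recovered with 4.95% false. Shares of transcript classes were compared by exact permutation of the 10 samples.

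The comparison, the lists and their members were chosen with earlier results of these data known. The genes named are, of each list described singly, members past the threshold, with the smallest p, written first or most abundant, and in addition members whose groups did not overlap or that complete a family, chosen after their values were seen. Alternatives were DESeq2 1.42.0, its size factors, other filters, a transcript-length offset, all 20 samples in one fit, the replicate number as a block, limma's diffSplice, other minimum shares and each sample left out. The log odds and the fits without the choroid plexus-rich libraries or null libraries 1 and 2 were added after seeing the data. Some members of the lists are not reported here by name.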

Additional observations from a re-analysis of the deposited data

Results flagged for a closer look

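In groups of 5 libraries, a value was looked at again where the gap between the extreme library and its neighbour took more than 0.71 of the range of the group, Dixon's ratio at 95%. Of 254 groups 22 (8.66%) did, where chance gives about 1 in 20. Null library 5 gave the highest sum of endothelial (ratio 0.877), pericyte and smooth muscle (0.871), choroid plexus (0.976), MHC class I (0.723) and MHC class II markers (0.827), the lowest sum of mature oligodendrocyte markers (0.775) and the lowest level of *Mbp* (0.832), and the highest level of *Doc2b* (0.805) and *Hspa8* (0.731). It also had the lowest share of processed transcripts (0.857). WT library 3 gave the highest sum of choroid plexus (0.986), ependymal (0.745) and blood markers (0.726). WT library 5 gave the lowest level of *Camk2a* (0.711) and *Aqp4* (0.738) and the lowest sum of postsynaptic scaffolds (0.728). Null library 3 gave the highest sum of immediate early genes (0.793) and the highest level of *Egr2* (0.717) and *Fos* (0.758). WT library 4 had the lowest sum of CA2 markers (0.815), WT library 1 the lowest level of *Cacnb2* (0.722), and null library 2 the highest sum of mitochondrial import and dynamics (0.711).

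In *Ndst4*, *Mdga1* and *Sema5b* the log2 fold change was below 0 in hippocampus and above 0 in neocortex. By the interaction term in edgeR the values lay apart by 3.07, 0.97 and 0.88 on the log2 scale.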

How the results depend on the processing

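Against 17 genes called, 16 to 19 were called with DESeq2's size factors, no filter or a transcript-length offset. With at least 10 counts in every sample 9 were called, with DESeq2's Wald test 139, with all 20 samples in one fit 83, and with 1 library left out 10 to 31, the last without null library 5. *Mrpl27* was among them each time. Of the list members DESeq2 called 19 (C1qb, Cd300lf, Doc2b, Fdft1, Gapdh, Hcn2, Hspb8, Hspd1, Mdga1, Mrpl10, Mrpl27, Napa, Phb, Sema5b, Shank1, Slitrk4, Sqle, Syt7 and mt-Nd5) and the fit of all samples 9. A replicate block left 4 genes called. Same-numbered WT and null hippocampal libraries correlated at -0.21 to 0.129 and are different mice, so the numbers do not pair the genotypes. Whether same-numbered libraries of hippocampus and neocortex pair was not tested.

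Against 3 genes called for usage, 6 were called at a minimum share of 1%, 13 by limma's diffSplice, 5 by log odds, 8 without null libraries 1 and 2, 6 to 16 with 1 library left out and 0 by exact permutation of TPM shares (897 transcripts at an unadjusted p of at most 0.05). With 252 regroupings the smallest p of that last test is 0.00794, which a single transcript of 20295 cannot carry past the adjustment, so it says nothing about stability. *Fmnl1* was called under the other alternatives. List members called included *Mrpl10* at a minimum share of 1% and *Gapdh*, *Gfap* and *Mrpl27* by limma's diffSplice.

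Without null libraries 1 and 2 the list median was 0.018 for meningeal fibroblasts, 0.074 for NMDA, kainate and metabotropic receptors, 0.10 for adhesion, -0.038 for import and dynamics, 0.019 for the proteasome and 0.033 for glycolysis, and the log2 fold change was 0.017 for *Lct*, 0.015 for *Prox1* and -0.067 for *Slc17a7*. With the length offset the NF-kB median was 0.054. As a share of counts the protein-coding class differed by -0.139 percentage points. With 1 library left out, medians ranged from -0.16 to 0.010 for pan-excitatory markers, 0.31 to 1.15 for ependymal, -1.09 to 1.65 for choroid plexus, -0.73 to -0.077 for MHC class II and 0.016 to 0.21 for CD300 genes, and log2 fold changes from -0.12 to 0.021 for *C1qa* and -0.040 to 0.033 for *Slc17a7*. The other 862 list medians under an alternative moved by less than 1 SD between replicates of the mean level of the list. That SD was wide for some lists, 0.38 for dentate granule markers and 0.10 for nuclear-encoded oxidative phosphorylation. The medians of these 2 lists changed sign without null libraries 1 and 2 and still count among the 862, so the count does not show that a median kept its sign. The causes were not tested.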
